A study of Rattus norvegicus with 64 samples.

Results

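Kidney transcript levels were compared between Sprague Dawley rats sampled 10 h after bromobenzene, given once at 0.4 g/kg, and rats sampled 10 h after saline vehicle. The members are the 16 libraries whose labels give kidney and 10 h, 8 with bromobenzene and 8 with vehicle, out of 64 libraries in the series. The series also covers liver and a 5 h time point, with 8 libraries in each group and 32 rats in all. Sprague Dawley is an outbred stock, so animals of a group differ genetically, and the labels used here give no sex, age or genotype. The extraction protocol in the labels speaks of cultured cells, while the design and the tissue labels give organs of treated rats.

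Bromobenzene is an aromatic solvent and a model toxicant of liver and kidney. Cytochrome P450 enzymes of the liver oxidise it to reactive epoxides and on to bromophenols and quinols that are conjugated with glutathione. In the rat, conjugates that reach the kidney are cleaved by gamma-glutamyl transpeptidase on the brush border of the proximal tubule and taken up there, and the proximal tubule is the segment known to be injured at high doses. The deposited tables name features by Ensembl transcript ID only, and 0 of those IDs could be paired with a gene in the reference table used here. Transcripts are therefore described by ID and by their levels, with no gene name or function.

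The 16 libraries looked like kidney and were close to each other in depth. Total estimated counts ranged from 16.98 to 24.1 mega-counts (SI prefix), and 22527 to 23494 transcripts had at least 1 count. Transcripts defined as kidney-enriched in the 5 h vehicle animals (849, at least 16-fold over liver) held 13.8% to 14.5% of counts in every library, and 396 liver-enriched ones held 0.228% to 0.254%. The defining marker genes of kidney cell types could not be checked without gene names. Libraries numbered up to RP-50 (5 bromobenzene and 6 vehicle) and from RP-51 (3 and 2), here called the earlier and later run, separated along the first principal component of the 500 most variable transcripts, which held 19.2% of the variance, as the plot of principal components shows. The numbers themselves are unbroken and no label marks this division, which was set from the data. A run here is a stretch of library numbers, and earlier and later refer to the order of the numbers only. On the same component bromobenzene and vehicle libraries overlapped (exact permutation p = 0.342, two-sided). On component 3, with 8.33% of the variance, bromobenzene libraries averaged 4.64 and vehicle libraries -4.64 (exact permutation p = 0.0303), the lowest p of the 5 components examined and not adjusted for their number. The calls, the named transcripts and the response score are given within the runs as well as over all 16 libraries.

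**Figure D1:**
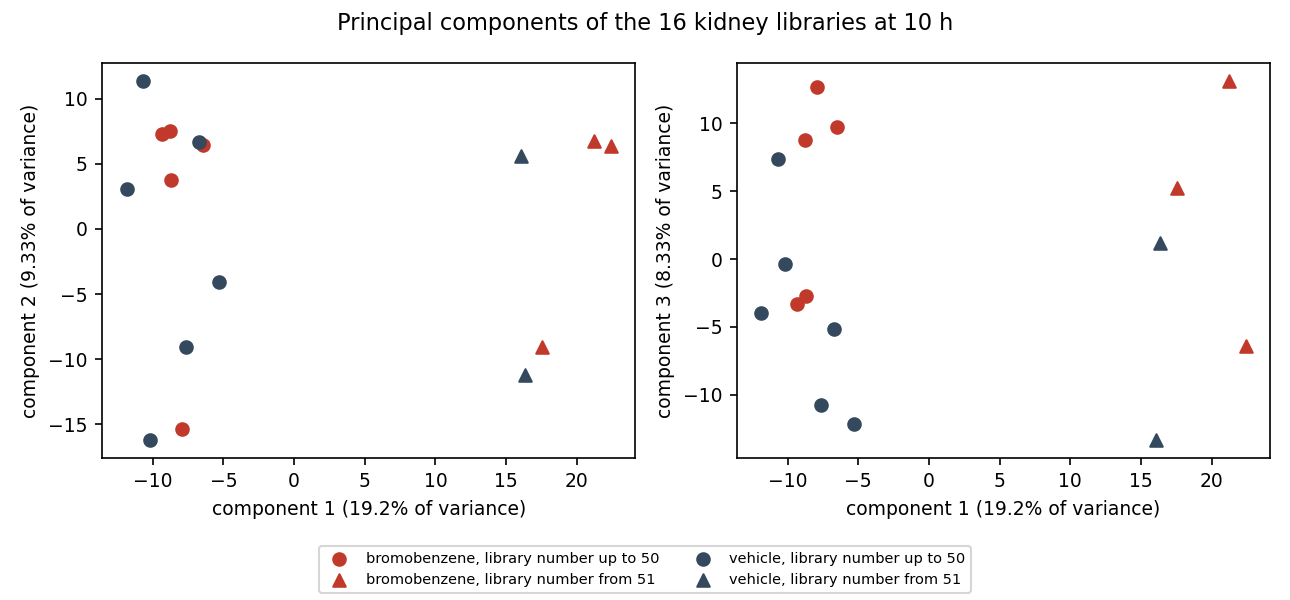
Scores of the 16 kidney libraries at 10 h on components 1 and 2 (left) and 1 and 3 (right), in log2 CPM units, from the 500 most variable transcripts. Each point is a library, red for bromobenzene and dark for vehicle, circles for library numbers up to 50 and triangles from 51, and the 5 libraries of the later run stand apart on component 1 (19.2% of variance).

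Few kidney transcripts were called after bromobenzene, and most of the calls were under 1.5-fold. In RNA of the whole organ, fewer cells of a type and less RNA per cell cannot be told apart. Of 20004 transcripts tested with edgeR's quasi-likelihood test over the 32 kidney libraries, 125 passed a Benjamini-Hochberg adjusted p under 0.05, which is 0.625% of those tested. They were 61 that rose (0.305%) and 64 that fell (0.32%). The median rise was 1.31-fold and the median fall 1.27-fold, with 10 risers and 2 fallers at 2-fold or more, and 37 risers and 55 fallers under 1.5-fold. Scaling by library totals alone gave 55 that rose and 143 that fell, and 38 and 181 came from limma when run on log2(TPM + 1). DESeq2 called 315 and voom with sample weights 357. Before adjustment, 2025 of the 20004 transcripts had an edgeR p under 0.05. The edgeR count of calls was 79 without vehicle replicate 5 and 83 without bromobenzene replicate 1. A fit with the earlier and later run as a covariate called 169, all 125 among them.

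The called transcripts lay among the better measured ones. Of 1219 transcripts with a mean of 100 TPM or more, 14 rose and 7 fell (1.72%), while of 3038 under 1 TPM, 4 rose and 1 fell (0.165%). Those at 20 to 100 TPM gave 19 and 25 (1.06%), those at 5 to 20 TPM 15 and 28 (0.685%), and those at 1 to 5 TPM 9 and 3 (0.225%). The standard error of the log2 change moved with level, from a median of 0.38 under 1 TPM to 0.06 at 100 TPM or more. By transcript length, 0.385% of those under 1000 nt and 0.797% of those of 5000 nt or more were called, with median standard errors of 0.17 and 0.11. Over all tested transcripts 262 had a fitted change of 2-fold or more, of which 12 were called.

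For the called transcripts, all or nearly all treated animals stood on the called side of the vehicle median, though often within the vehicle range. For 52 of 61 risers all 8 bromobenzene libraries stood above the vehicle median, and for the other 9 it was 7 of 8. For 60 of 64 fallers all 8 stood below it, and for the other 4 it was 7. The TPM ranges of the groups did not overlap for 10 risers and 35 fallers, against 96 of all tested transcripts (0.48%). The medians above are of TMM-scaled counts, while these ranges are of TPM. In limma on log2(TPM + 1) the median log2 change of all tested transcripts was -0.036. The part of that shift in the 10 against 35 was not tested. These counts use the same libraries that chose the transcripts, so they describe the lists and are no test of them.

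Of the called transcripts, 113 had a mean of at least 5 CPM and at least 7 of 8 bromobenzene libraries on one side of the vehicle median. The 2 with the largest rise and the 2 with the largest fall among them are described here. ENSRNOT00000013073.4, 993 nt long, had the largest rise. It stood at 30.3, 4.15, 4.06, 3.93, 39.6, 34.9, 5.02 and 48.7 TPM in bromobenzene kidneys (replicates 1 to 8), against 4.66, 2.60, 3.58, 2.99, 2.74, 2.33, 5.19 and 3.87 TPM in vehicle kidneys. Bromobenzene replicates 1, 5, 6 and 8 lay far above every vehicle kidney, and replicates 2, 3, 4 and 7 lay within the vehicle range. The group mean was 21.3 ± 18.9 TPM after bromobenzene and 3.49 ± 1.02 TPM after vehicle (SD, n = 8 each). Its log2 change in counts was 2.67 (SE 0.61, edgeR adjusted p = 0.0296), so that mean change describes no single animal. The call was lost without any 1 of bromobenzene replicates 1, 6 and 8 and vehicle replicates 1, 2, 3, 4, 5, 6 and 8 (edgeR adjusted p = 0.0509 to 0.0738), and within either run of library numbers (adjusted p = 0.179 and 1).

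A like division was seen 5 h after the dose. ENSRNOT00000013073.4 was above 15 TPM in 3 of 8 bromobenzene kidneys at 5 h (15.6 to 36.6 TPM), and at most 5.25 TPM in the other 5, while the highest of the 16 vehicle kidneys of both times stood at 7.47 TPM. As group means the levels at 5 h were 12.98 ± 14.5 TPM after bromobenzene and 4.98 ± 1.24 TPM after vehicle (SD, n = 8 each). That comparison did not pass (log2 change 1.34, SE 0.59, edgeR adjusted p = 0.293), and neither did the difference between the times (log2 difference 1.33, SE 0.83, adjusted p = 0.664). The animals at 5 h and at 10 h are different rats, so no animal was followed. In liver at 10 h the transcript ranged from 0.287 to 7.46 TPM after bromobenzene and from 0.150 to 0.844 TPM after vehicle. It rose there too (log2 change 2.92, SE 0.66, edgeR adjusted p = 0.00151), and the test of kidney minus liver did not pass (log2 difference -0.25, SE 0.81, adjusted p = 0.902).

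ENSRNOT00000008613.7, 3430 nt long, had the next largest rise. It stood at 40.2, 33.3, 19.3, 46.8, 14.2, 33.5, 20.99 and 20.8 TPM in bromobenzene kidneys, against 11.1, 12.8, 9.64, 19.8, 7.72, 10.7, 10.5 and 13.2 TPM in vehicle kidneys. Bromobenzene replicates 3 and 5 were below the highest vehicle kidney, replicate 4, and the other 6 were above it. The means were 28.7 ± 11.5 TPM after bromobenzene and 11.9 ± 3.62 TPM after vehicle (SD, n = 8 each), with a log2 change of 1.31 (SE 0.24, edgeR adjusted p = 0.00446). Within the runs of library numbers the log2 change was 1.40 and 1.12, neither called alone (adjusted p = 0.111 and 1). Its highest level in any 10 h liver was 0.0291 TPM, so it was not tested between organs.

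**Figure D2:**
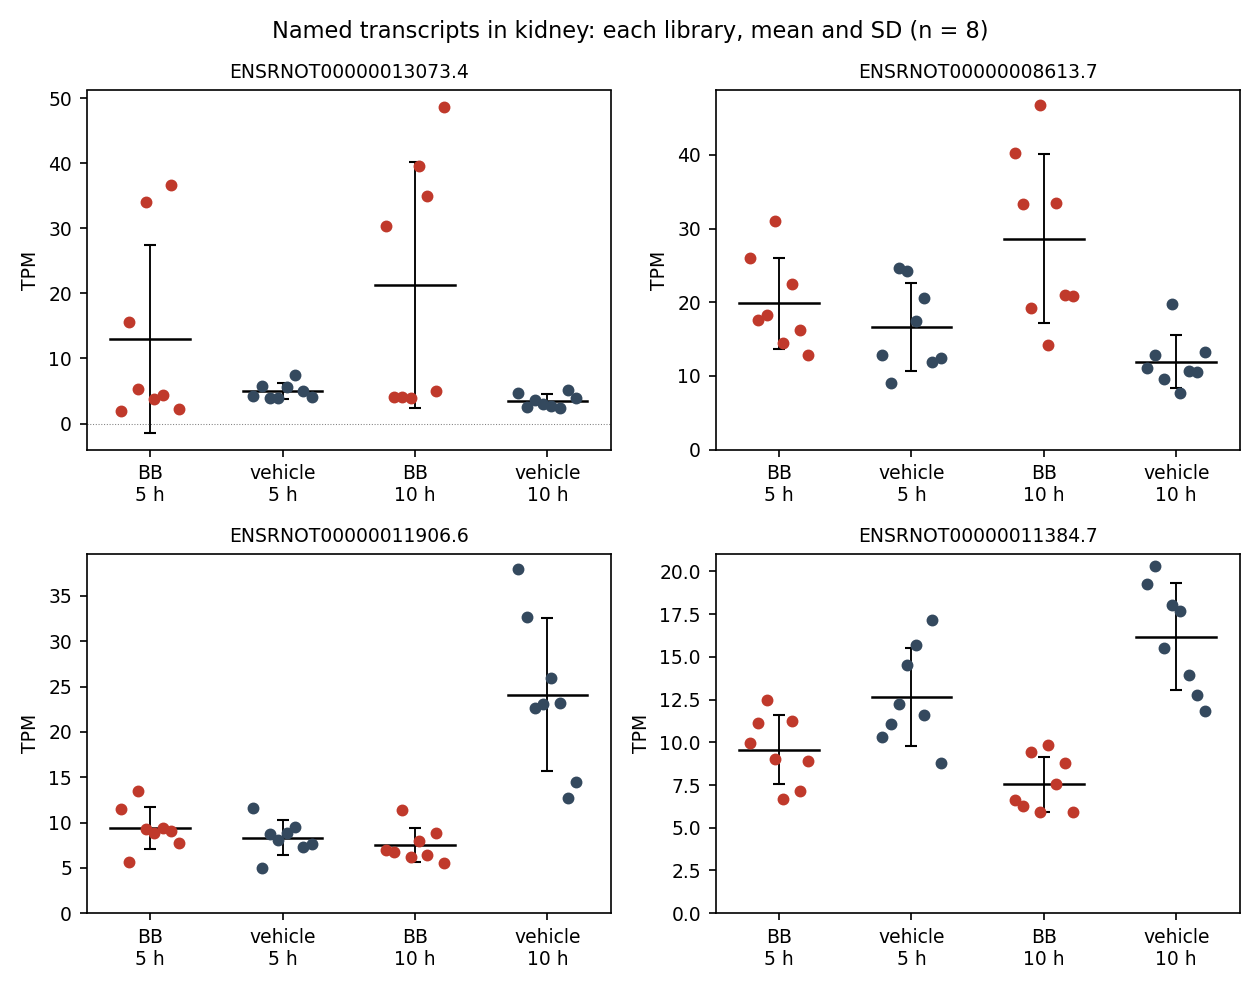
TPM of 4 named transcripts in each kidney library, by time and agent (BB, bromobenzene), with horizontal lines for group means and bars for SD (n = 8). ENSRNOT00000013073.4 divides the bromobenzene kidneys at both times, and ENSRNOT00000011906.6 is highest in the 10 h vehicle kidneys, at 12.7 to 37.97 TPM, which overlap the 5 h bromobenzene kidneys (up to 13.5 TPM).

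ENSRNOT00000011906.6, 3445 nt long, had the largest fall relative to the 10 h vehicle kidneys. It stood at 6.97, 6.70, 11.4, 6.16, 7.95, 6.42, 8.80 and 5.54 TPM in bromobenzene kidneys, against 37.97, 32.7, 22.6, 23.05, 25.9, 23.2, 12.7 and 14.4 TPM in vehicle kidneys. The ranges did not overlap. The SD was 1.87 TPM around a mean of 7.49 TPM after bromobenzene, and 8.43 TPM around 24.1 TPM after vehicle. Vehicle replicates 7 and 8, the lowest of that group, were of the later run. Fitted to the counts, the log2 change came to -1.63 (SE 0.19; adjusted p = 1.55e-05 by edgeR), with log2 changes of -1.77 in the earlier run and -0.94 in the later one, the second not called alone (adjusted p = 0.899). At 5 h the transcript averaged 9.38 ± 2.33 TPM after bromobenzene and 8.33 ± 1.90 TPM after vehicle (SD, n = 8 each). The 10 h bromobenzene kidneys lay within the range of the 5 h kidneys (4.998 to 13.5 TPM), and 7 of the 8 vehicle kidneys of 10 h lay above it. Vehicle kidneys were higher at 10 h than at 5 h (log2 difference 1.46, SE 0.19, edgeR adjusted p = 9.01e-06). In bromobenzene kidneys that comparison did not pass (log2 difference -0.32, SE 0.19, edgeR adjusted p = 0.435). The difference between the 10 h and 5 h responses passed (log2 difference -1.78, SE 0.27, edgeR adjusted p = 0.00256) and passed in all 19 alternatives tried.

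ENSRNOT00000011384.7, 3038 nt long, had the next largest fall. It stood at 6.62, 6.30, 9.43, 5.90, 9.86, 7.54, 8.77 and 5.92 TPM in bromobenzene kidneys, against 19.2, 20.3, 15.5, 18.1, 17.7, 13.9, 12.8 and 11.8 TPM in vehicle kidneys. The highest bromobenzene kidney was below the lowest vehicle kidney. The means were 7.54 ± 1.61 TPM after bromobenzene and 16.2 ± 3.12 TPM after vehicle (SD, n = 8 each), a log2 change of -1.05 (SE 0.14, edgeR adjusted p = 0.000115), with -1.15 in the earlier run and -0.70 in the later one, the second not called alone (adjusted p = 1). At 5 h the means were 9.57 ± 2.03 TPM and 12.7 ± 2.86 TPM, a comparison that did not pass (log2 change -0.44, SE 0.14, edgeR adjusted p = 0.128). In liver at 10 h the means were 4.88 ± 1.32 TPM after bromobenzene and 5.86 ± 1.48 TPM after vehicle (SD, n = 8 each). The log2 change in kidney minus that in liver was -0.71 (SE 0.22, edgeR adjusted p = 0.0421). This call was lost in 10 of 16 fits that left out 1 kidney library (edgeR adjusted p up to 0.0701). A fit taking liver library n and kidney library n + 32 as 1 rat lost it too (edgeR adjusted p = 0.110).

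How strongly each animal responded was measured with transcripts that the animal had no part in choosing. Each 10 h kidney library in turn was left out, the test was repeated, and the transcripts called there were read in the library left out. The score is the mean log2 CPM of the risers minus that of the fallers, relative to the vehicle libraries that remained. It was 1.12, 0.961, 0.604, 0.994, 0.538, 0.970, 0.706 and 0.955 in bromobenzene replicates 1 to 8. In vehicle replicates 1 to 8 it was 0.0160, 0.117, 0.0135, 0.309, 0.0490, 0.0518, 0.224 and 0.146. Every bromobenzene kidney scored above every vehicle kidney, with means of 0.856 ± 0.211 and 0.116 ± 0.106 (SD, n = 8 each). The vehicle libraries that remained both helped choose each list and set its zero, which favours scores above 0 in any library left out. The vehicle scores were all above 0, so the bromobenzene scores are to be read against them and not against 0. The scores share most of their libraries and are given without a test.

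**Figure D3:**
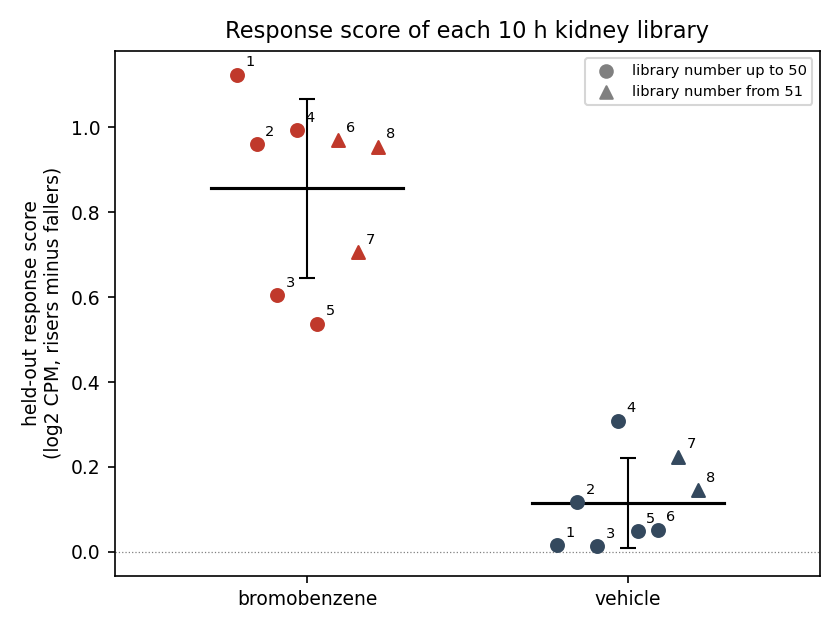
Held-out response score, in log2 CPM, of each 10 h kidney library, labelled by replicate, with lines for the mean and bars for SD (n = 8 each). Bromobenzene kidneys lie between 0.538 and 1.12 and vehicle kidneys between 0.0135 and 0.309, and circles and triangles (the runs of library numbers) are mixed in both groups.

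The treated animals differed among themselves. Bromobenzene replicates 3, 5 and 7 had the lowest scores of the treated group, and replicate 1 the highest. Each animal was scored on its own list, and the lists of replicates 3, 5 and 7 held 144, 179 and 132 transcripts, against 83 to 89 for the other 5. On those 3 longer lists the other treated animals also scored lowest, at 0.941, 0.936 and 0.970 on average, against 0.991 to 1.09 on the rest, and the part of list length in the order was not tested. Between 87.5% (replicate 3) and 100% (replicate 4) of the transcripts called without an animal lay on the called side of the vehicle median in that animal. In vehicle kidneys it was 50% to 72.4%. That median also comes from vehicle libraries that helped choose the lists. The risers and fallers contributed together: replicate 1 had the riser mean farthest from vehicle (0.66) and replicate 5 both the nearest riser mean (0.31) and the nearest faller mean (-0.23). Bromobenzene scores were alike in the earlier and later run, with means of 0.844 (n = 5) and 0.877 (n = 3). The vehicle mean was higher in the later run, at 0.185 (n = 2) against 0.0927 (n = 6), and the runs were not compared by a test. The division in ENSRNOT00000013073.4 did not follow the score. Replicate 5, with the lowest score, had 39.6 TPM of it and replicate 4, with the second highest, had 3.93 TPM.

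The response can also be read in the libraries of the later run with transcripts they did not choose. The earlier run alone (5 bromobenzene and 6 vehicle libraries) gave 36 calls, 12 that rose and 24 that fell. In the later run 35 of them were tested, and 34 had the same sign there, against 59.5% of the 20369 transcripts tested in both runs. The median log2 change of the risers was 0.36 in the later run and 0.40 in the earlier one, and that of the fallers -0.33 and -0.52. The exception had a log2 change of -0.19 in the later run and 1.64 in the earlier one. Scored on these transcripts, the later bromobenzene libraries stood at 0.811, 0.741 and 0.720 and the later vehicle libraries at 0.0531 and -0.0531, taken around the mean of those 2 vehicle libraries. With 3 against 2 libraries the later run on its own gave 0 calls by edgeR. Of 20765 transcripts tested there, 798 had an edgeR p under 0.05 before adjustment, fewer than that threshold gives by chance. DESeq2 and limma were not applied to the later run alone.

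**Figure D4:**
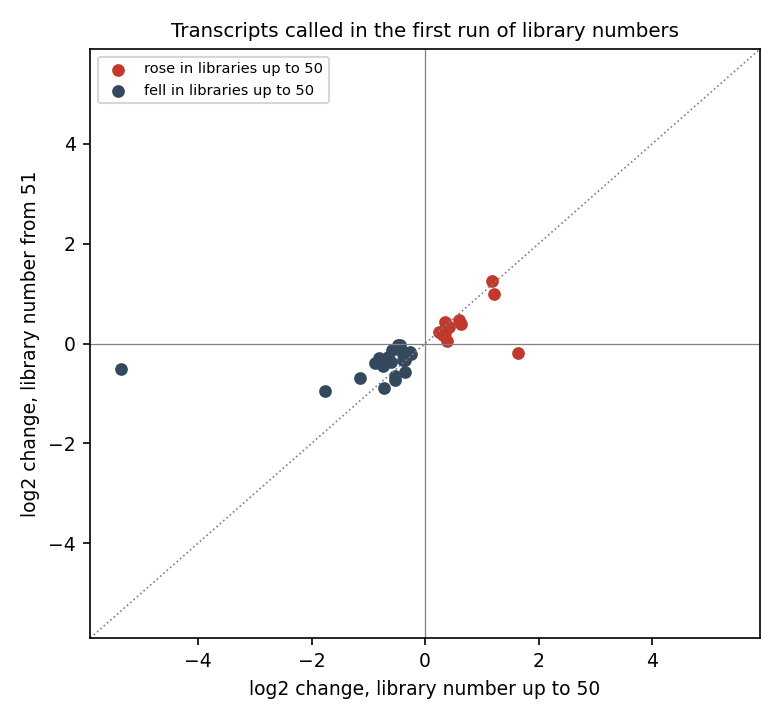
Log2 change (bromobenzene over vehicle, 10 h kidney) of the 35 transcripts called in libraries numbered up to 50, there (horizontal) and in libraries numbered from 51 (vertical). The dotted line marks equal change, and 34 of the 35 points have the same sign on both axes.

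Animals of both groups varied to a like degree over the transcriptome. Across 17560 transcripts averaging at least 1 CPM, the median SD of log2 CPM within a group was 0.169 after bromobenzene and 0.170 after vehicle (0.160 and 0.161 around the mean of each run). The SD was the larger one after bromobenzene for 52.2% of transcripts, and for 48.02% without bromobenzene replicate 8. It was over 3 times the SD of vehicle for 138 transcripts, and the reverse held for 121. Among the 61 risers the SD was larger after bromobenzene for 45, though the median SD was 0.161 after bromobenzene and 0.166 after vehicle. Among the 64 fallers it was larger for 33.

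A set of 9 transcripts stood apart in single treated animals. They were at least 5 TPM and at least 4-fold higher in bromobenzene replicate 1 than in each of the other 15 kidneys, and no other library had more than 1 such transcript. Since that rule chose them, their level in replicate 1 is a description. Their summed level was 22585 TPM in bromobenzene replicate 1, and 2112, 2066, 5087, 2248, 3251, 2967 and 3213 TPM in bromobenzene replicates 2 to 8. In vehicle kidneys it ranged from 2129 to 3589 TPM. Bromobenzene replicate 4 was the next highest library for all 9. None of the 9 was called (lowest edgeR adjusted p = 0.177). The 9 have only 4 distinct patterns of estimated counts, with 5 of them identical, so shared reads were divided among near-identical transcripts and their number is not a number of genes. They held 0.687% of the counts of replicate 1. None was on the liver-enriched list, and in liver at 10 h they summed to 2725 to 5097 TPM after bromobenzene and 2154 to 7234 TPM after vehicle.

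The 9 were also raised in some animals at 5 h. Bromobenzene replicates 2 and 7 of that time had 9818 and 5700 TPM, and the other 6 had 2242 to 3572 TPM, against 2030 to 3562 TPM in the 5 h vehicle kidneys. The transcripts were chosen on the 10 h libraries, and the 5 h values were not used for that choice.

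**Figure D5:**
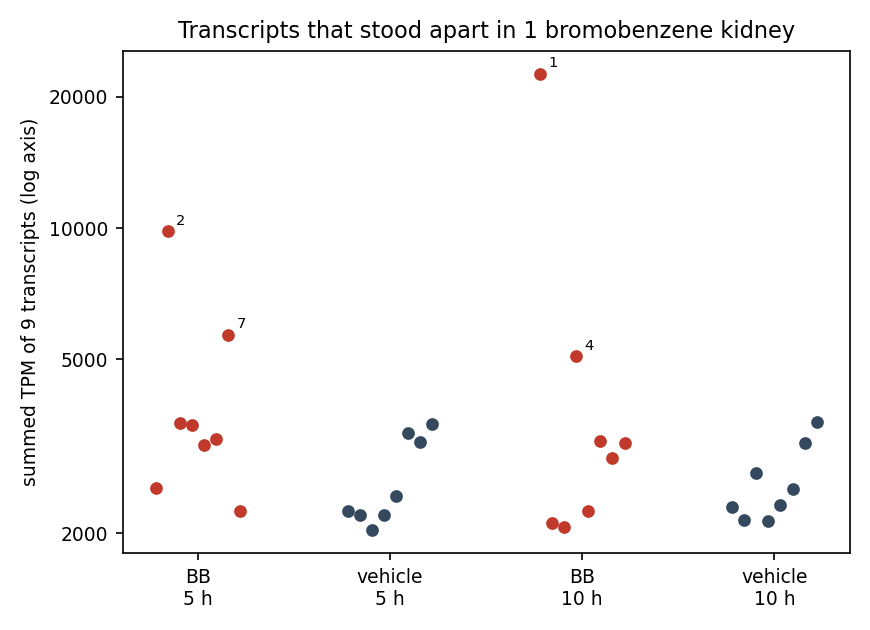
Summed TPM (log axis) of the 9 transcripts that stood apart in 1 bromobenzene kidney at 10 h, in each kidney library by time and agent (BB, bromobenzene), with replicate numbers at the highest points. At 10 h replicates 1 and 4 and at 5 h replicates 2 and 7 of the bromobenzene groups lie above all vehicle kidneys.

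The 10 h response was set against the 5 h response by a test of the difference. It passed for 27 of 20004 transcripts (0.135%), with 12 more positive at 10 h and 15 more negative. Of the 12, 5 were called at 10 h and 3 at 5 h, with median log2 changes of 0.27 at 10 h and -0.19 at 5 h. Of the 15, 8 were called at 10 h and 3 at 5 h, with medians of -0.47 and 0.15. It fell to between 13 and 16 when bromobenzene replicate 1, 6 or 8, or vehicle replicate 5, 6 or 7, was left out. The risers and fallers were chosen for passing at 10 h, so smaller changes and fewer calls at 5 h follow in part from the choice, and their values are a description. The median log2 change of the 61 risers was 0.39 at 10 h and 0.09 at 5 h, and none was called at 5 h. The 64 fallers had medians of -0.35 and -0.08, and 2 fell at 5 h too. Of all 20004 transcripts, 28 were called lower and 47 higher at 5 h (0.375% in either direction).

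The levels of the called lists in the vehicle animals also differed between the times. The 61 risers had a median log2 difference, 10 h over 5 h, of 0.07 in bromobenzene kidneys and -0.28 in vehicle kidneys. For the 64 fallers it was -0.19 in bromobenzene kidneys and 0.10 in vehicle kidneys. Over all tested transcripts both medians were 0.00. These values share the 10 h libraries that chose the lists and are given as a description.

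Kidney changes were set against those of liver at the same time. Over 14012 transcripts with a mean of at least 1 CPM in both organs, the median size of the log2 change was 0.07 in kidney and 0.17 in liver. These medians include estimation error and are not the size of the response alone. In the fit of kidney libraries only, the median standard error over 20004 transcripts was 0.118. The difference between the organs' responses passed for 1131 (8.07%), with 529 more positive in kidney and 602 more negative. With scaling by library totals alone the split was 316 and 1041. The risers and fallers were called on these kidney libraries, which favours larger values in kidney, so their medians describe the lists only. Of the 61 risers 53 were tested in both organs, with a median log2 change of 0.37 in kidney and 0.16 in liver. In liver 20 of them rose and 4 fell, and the difference passed for 12, with 10 more positive and 2 more negative in kidney. Of all 14012 transcripts, 1715 rose and 1645 fell in liver. Of the 64 fallers 53 were tested in both, with medians of -0.33 in kidney and -0.20 in liver. In liver 18 of them fell and 1 rose, and the difference passed for 13, with 7 more negative and 6 more positive in kidney. In this fit of both organs, which share 1 estimate of the spread, 28 of the 14012 transcripts were called in kidney and 3360 in liver. With 32 rats for 64 libraries each rat gave both organs, but the labels do not tie a liver to its kidney. Liver library n and kidney library n + 32 carry the same time and agent throughout, a pattern no label explains, and the organs were fitted as unpaired. Of the 16 kidneys at 10 h, 12 correlated best with the liver of that number among the livers of their group. A fit with these pairs as blocks gave 1032 differences in place of 1131.

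None of 7 measures of whole libraries passed after adjustment. The 100 most abundant transcripts held 30.7% ± 0.676 of counts after bromobenzene and 29.8% ± 0.782 after vehicle (SD, n = 8 each), a difference of 0.909 percentage points (two-sided exact permutation p = 0.0291, adjusted over 7 measures 0.203). Total counts, detected transcripts, the mean length weighted by counts, and the liver-enriched and kidney-enriched shares had adjusted exact permutation p from 0.231 to 0.595. A score on the 75 transcripts called in kidney at 5 h averaged 0.126 ± 0.155 in bromobenzene kidneys and 0.00 ± 0.0860 in vehicle kidneys (SD, n = 8 each, exact permutation p = 0.069, adjusted 0.231). It was taken around the mean of the 8 vehicle kidneys, so their mean of 0.00 was set by definition. Bromobenzene replicate 7 stood at -0.199, below every vehicle kidney, and without it the exact permutation p was 0.000466. Without any 1 of the other 15 libraries it was 0.0636 to 0.140. Within libraries up to RP-50, a split chosen after seeing the data, the difference in this score was 0.154 (exact permutation p = 0.00649, unadjusted). The share of the 100 most abundant transcripts differed by 0.942 percentage points there (exact permutation p = 0.0195, unadjusted). The other measures had unadjusted exact permutation p from 0.132 to 0.450 in those libraries. From RP-51 these differences were 0.102 and 0.549 percentage points, not tested.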

How the data were processed

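Stranded mRNA libraries enriched for poly-A were sequenced from both ends, per the labels' protocols. Per the submitters' processing notes, kallisto 0.42.4 and the build Rnor_6.0 were used, and the annotation release is not given in the sources used here. The authors deposited unnormalized estimated counts per transcript, with reads that match several transcripts split between these. Also deposited by the authors, TPM values are scaled by effective length to a fixed sum per library. Each table lists 31715 transcripts.

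After rounding, the estimated counts passed through filterByExpr (minimum count 10 and minimum total 15) and TMM scaling. edgeR 4.0.16, in R 4.3.3, then tested the 32 kidney libraries with no covariate. Organs were compared in a fit of the 32 libraries at 10 h. Standard errors are the log2 change divided by the square root of F. limma 3.58.1 and DESeq2 1.42.0 served as alternatives. Library measures were compared over all 12870 splits. The script was tested on simulated data. All 56 pairs of libraries of the same group differed by more than counting noise (chi-square over its degrees of freedom at least 9.81). Per the design text, the 8 libraries of a group come from 8 rats. Estimated counts have no molecular identifiers, so they are not independent molecules. Replicate numbers follow record order and pair nothing. The called lists, the named transcripts, the earlier and later run, and the measures of single libraries were chosen with earlier results of these data known. Planned gene lists and cell markers could not be applied, since no ID paired with a symbol. By the naming rule the 2 largest rises and 2 largest falls are given by ID.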

Additional observations from a re-analysis of the deposited data

Results flagged for a closer look

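With 24 groups of 8 libraries examined for a library far from the rest, chance gives about 1 in 20, and 2 stood out. The share of counts in the 100 most abundant transcripts was 31.6% in vehicle replicate 8, against 30.1% in the next vehicle kidney. ENSRNOT00000008613.7 stood at 19.8 TPM in vehicle replicate 4, against 13.2 TPM in the next vehicle kidney.

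A difference between conditions passed its own test for 2 named transcripts. ENSRNOT00000011906.6 had a log2 response at 10 h minus 5 h in kidney of -1.78 (edgeR adjusted p = 0.00256, from 3.86e-07 to 0.00679 over 19 alternatives). ENSRNOT00000011384.7 had a log2 response in kidney minus liver of -0.71 (edgeR adjusted p = 0.0421, from 0.0241 to 0.110 over 20 alternatives).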

How the results depend on the processing

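The 125 calls at 10 h became 315 with DESeq2 (121 shared), 357 with voom and sample weights (123 shared), 219 with limma on log2(TPM + 1), 215 on log2(TPM + 0.1), 198 with library totals alone, 234 with only the 10 h groups, 36 with only libraries up to RP-50 (26 shared) and 0 with only those from RP-51. With 1 library left out the count ran from 79 to 179. The 27 differences between the times became 137 with DESeq2 and 45 with library totals alone (7 higher and 38 lower), and 13 to 33 with 1 library left out. The 1131 organ differences ran from 952 to 1043 with 1 kidney library left out, and were 1521 with DESeq2. The difference in the share of the 100 most abundant transcripts ran from 0.795 to 1.16 percentage points (exact permutation p = 0.00249 to 0.0549), that in the kidney-enriched share from -0.287 to -0.173 points (exact permutation p = 0.0179 to 0.177), and that in the 5 h score from 0.0974 to 0.172 (exact permutation p = 0.000466 to 0.140), with 0.154 in libraries up to RP-50. The share of transcripts with the larger SD after bromobenzene ran from 48.02% to 55.1%. Every named transcript kept its direction in 28 alternatives. The call of ENSRNOT00000013073.4 was lost in 15 of them (adjusted p = 0.000707 to 1), that of ENSRNOT00000008613.7 in 2 (each run alone), and those of ENSRNOT00000011906.6 and ENSRNOT00000011384.7 in 1 each (the later run alone). The cause of these changes was not tested, except that the fits within a run hold fewer samples. The organ fits with the run as a covariate and with pairs, the spread alternatives and the library measures within a run were chosen after seeing the data. Bromobenzene and vehicle kidneys come from different rats, and the replicate numbers follow record order and pair nothing. Between organs, a replicate block taking liver library n and kidney library n + 32 as 1 rat gave 1032 differences (893 shared with the 1131), and ENSRNOT00000011384.7 did not pass in it (log2 difference -0.72, adjusted p = 0.110). The labels do not state that pairing. Deviations from the group means correlated above 0.1 across transcripts in 11 of the 16 pairs (r from -0.126 to 0.257), and 12 kidneys correlated best with the liver of that number. Transcripts under 1 TPM had a median standard error of 0.38, so changes there were detectable only when large.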

Other observations

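At 10 h, 4 transcripts were at least 3-fold above the highest vehicle kidney, at 1 TPM or more, in 2 to 6 bromobenzene kidneys, and 2 were so above the highest bromobenzene kidney in 2 to 6 vehicle kidneys. In the low direction, 15 transcripts were at most a 3-fold fraction of the lowest vehicle kidney in 2 to 6 bromobenzene kidneys, and 17 the other way round. No transcript was beyond these limits in 7 or 8 libraries of either group. Single libraries at least 4-fold below all other 15, where those had 5 TPM or more, were seen for 4 transcripts in bromobenzene kidneys and 8 in vehicle kidneys, with 4 of those 8 in vehicle replicate 4.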
